A study of Rattus norvegicus with 30 samples.

Results

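DNA methylation (DNAm) was examined around 2 genes of the Hippo pathway, Stk3 and Tead1, in the prefrontal cortex (PFC) of young rats. Each gene holds a short intronic site that the study listed as altered by prenatal alcohol exposure in 1 sex, the Tead1 site in males and the Stk3 site in females. The window around each site reached 100 kb to either side. Peaks of methylated DNA from all 30 libraries were merged wherever they overlapped by at least 1 bp, and the merged regions that lay in a window and were called in 2 or more libraries were taken as members. This gave 95 regions out of 442206 such regions in the whole series, 53 in the Tead1 window (chr1:177452956-177653441, Rn6) and 42 in the Stk3 window (chr7:73561817-73762364). The sites that centre the windows had therefore been picked from measurements in these same animals.

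The Hippo pathway is a kinase cascade that limits tissue growth. Stk3 encodes MST2, the kinase at the top of the cascade, which activates the LATS kinases and so keeps the coactivators YAP and TAZ out of the nucleus. Tead1 encodes a DNA-binding transcription factor at the other end, through which YAP and TAZ switch on genes for proliferation, among them in neural progenitors.

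The animals were Sprague-Dawley offspring at postnatal day 22, 10 per prenatal group, with 5 labelled female and 5 labelled male in each. Dams of the prenatal alcohol exposure (PAE) group drank a liquid diet with 36% of its calories from ethanol (6.37% v/v), pair-fed (PF) dams received an ethanol-free liquid diet rationed to the intake of a PAE partner, and control (CON) dams ate the control diet as pellets without restriction. The diets ran from gestation day 1 to 21, and each of the 15 dams gave 1 pup labelled female and 1 labelled male. Methylated DNA was captured with an antibody against 5-methylcytosine and sequenced (meDIP-seq), which measures the amount of methylated DNA over a stretch and not the methylation level of single cytosines. The tissue was bulk PFC, so that fewer methylated cells and fewer methylated cytosines per cell cannot be told apart.

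Libraries held between 11548314 and 16555049 filtered fragments and between 103898 and 208631 autosomal peaks. Height is given throughout as the highest fragment pileup of a region per 1000000 filtered fragments. A library with no called peak, or with a called peak below a common floor of 0.438, was set to that floor. The floor corresponded to between 5.06 and 7.26 fragments. Most values near this floor therefore rested on few fragments. The sequencing chips were spread unevenly over the groups, and chip was a term in every fit unless stated. The sex chromosomes of 18 of the 30 libraries went against the labelled sex. In 7 libraries chromosome X held 2.65% to 3.14% of the peaks and chromosome Y 4 to 11 peaks, the pattern of 2 X chromosomes. In the other 23 libraries chromosome X held 0.774% to 1.15% and chromosome Y 38 to 87 peaks. Of the 7 libraries with the pattern of 2 X chromosomes, 2 were labelled female and 5 male, and in 5 litters the labels of the littermates were the reverse of their sex chromosomes. Both littermates had chromosome Y in 8 further litters, so the labels were right for both pups in 2 litters. Groups below follow the labels, and "labelled female" and "labelled male" mean no more than that.

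Peaks around Stk3 were shared by more libraries than those around Tead1. In the Stk3 window 12 of 42 regions, 28.6%, were called in at least 15 libraries, against 2 of 53, 3.77%, in the Tead1 window and 23.3% of all autosomal regions called in 2 or more libraries. Of the 95 members 2 were called in all 30 libraries, both in the Stk3 window, beside 2.76% of all autosomal regions called in 2 or more libraries. The median region was called in 7 libraries around Stk3, in 5 around Tead1 and in 6 over all autosomes. Lengths were similar, with medians of 502.5 bp, 511 bp and 499 bp. These shares describe the windows and were not tested.

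The map of called peaks shows this contrast between the genes. Around Stk3 the same columns of peaks recurred from library to library, while around Tead1 most regions were called here and there.

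**Figure D1:**
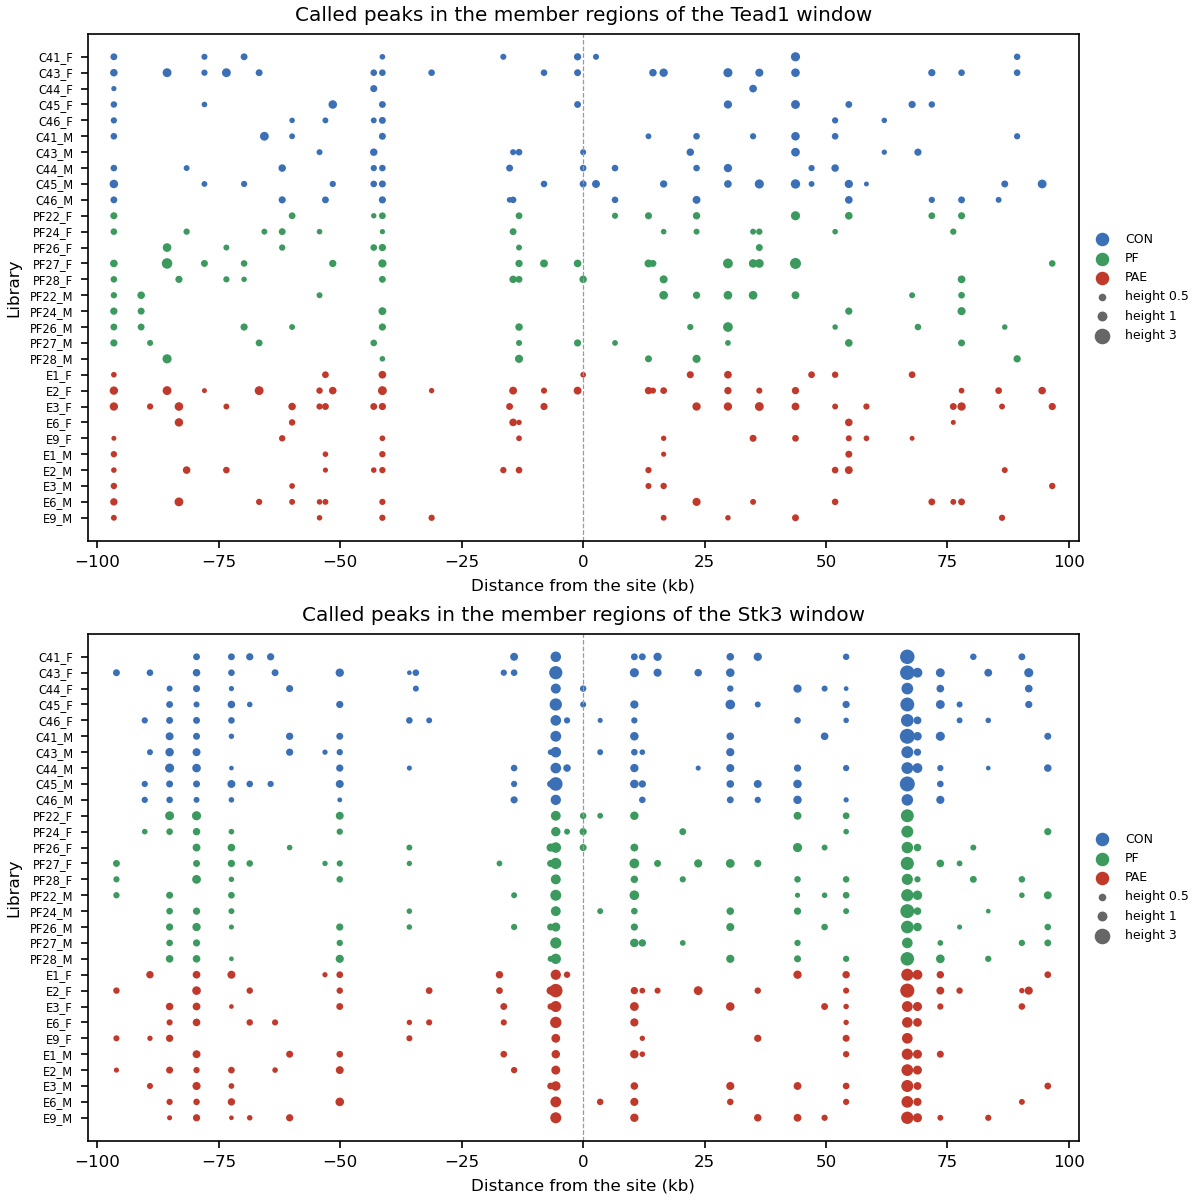
Called peaks in the 95 member regions, with distance from the site (kb) on the horizontal axis and the 30 libraries on the vertical axis; the area of a point is the normalized height and its colour the prenatal group. The 2 regions called in all 30 libraries stand out as full columns in the Stk3 window, and 42 of the 53 Tead1 regions were called in 3 to 14 libraries.

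Of the 95 members, 11 were called in only 2 libraries, 9 of them around Tead1, and were not tested. In these regions just inside the limit, the highest value ranged from 0.502 to 1.29 around Tead1, with a median of 0.749, and from 0.72 to 0.866 around Stk3. Just outside it, regions called in 1 library numbered 16 around Tead1 and 20 around Stk3, with median heights of 0.608 and 0.644. The members just inside and just outside the limit thus overlapped in height. A further 84 members, called in 3 or more libraries, entered the fits.

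Individual libraries differed more in the number of members called than the groups did. CON libraries had between 17 and 38 called members with a median of 24.5, PF libraries between 18 and 34 with a median of 22.5, and PAE libraries between 16 and 39 with a median of 22. The autosomal peak totals moved in the same order, with medians of 144412.5, 139890.5 and 134362.5. Per 10000 autosomal peaks the medians were 1.71 in CON, 1.61 in PF and 1.68 in PAE, and the 3 ranges overlapped.

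Stk3 is taken first because its kinase acts upstream. The Stk3 site (chr7:73661817-73662364, 548 bp) was called in 5 of 30 libraries, all of them labelled female. Among libraries labelled female, the CON values were 0.677 and 0.601 in the 2 called libraries, with the other 3 at the floor. The PF values were 0.69, 0.852 and 0.804 in the 3 called libraries, with the other 2 at the floor. All 5 PAE libraries labelled female were at the floor. CON and PF overlapped each other, and both overlapped PAE through their uncalled libraries.

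The peaks behind these Stk3 values were 7 to 13 fragments high, and their summits fell 334 to 426 bp from the start of the region. A height of 0.852, the largest, had an exact Poisson 95% interval of 0.454 to 1.46, whose lower end lies just above the floor. The smallest, 0.601, had an interval of 0.241 to 1.24. These intervals cover counting error only. The fitted log2 difference between PAE and CON in libraries labelled female was -0.22 and that between PAE and PF -0.43, and both are descriptions with no test because the site was chosen on these libraries. Single libraries moved these values, the first to -0.082 without C44_F, -0.14 without E6_F and -0.34 without C46_F, and the second to -0.24 without E9_F.

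All 15 libraries labelled male were at the floor at the Stk3 site. Going by the labels, these libraries had not been used to choose the site, but the exact permutation test in them had nothing to compare. The smallest p that 5 against 5 libraries allow is 0.00794, which needs groups that do not overlap. The 5 libraries with a called peak all had a chromosome Y signal, and none of the 7 with the pattern of 2 X chromosomes had a called peak. All 5 therefore went against their female label, and what part the sexes had in the values was not tested.

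The Tead1 site (chr1:177552956-177553441, 486 bp) was also called in 5 of 30 libraries, but the calls were spread over both labelled sexes. Among libraries labelled male, the CON values were 0.593, 0.717 and 0.803 in the 3 called libraries, and the other 2 were at the floor. All 5 PF and all 5 PAE libraries labelled male were at the floor. PAE and PF libraries labelled male thus had the same value throughout, and only CON libraries rose above it.

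The fitted log2 difference at the Tead1 site in libraries labelled male was -0.36 for PAE minus CON and -0.02 for PAE minus PF, again a description with no test. The first was -0.23 without C45_M or without E2_M, and the second lay around 0, from -0.13 to 0.064 when 1 library was left out. The peaks were 7 to 13 fragments high. Their summits fell in separate places, 104 to 141 bp from the start of the region in 3 libraries and 304 to 355 bp in the other 2, so that the merged region joined a pair of neighbouring stretches.

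Going by the labels, the libraries labelled female had not been used to choose the Tead1 site. Among them, 1 of 5 PAE libraries reached 0.528, 1 of 5 PF libraries reached 0.92, and all 5 CON libraries were at the floor. The mean log2 height of PAE was higher than that of CON by 0.05, and differed from that of PF by -0.16. Neither passed the two-sided exact permutation test, with p = 1 for both and the same after adjustment over the 2 tests that had a value. Fisher's exact test of called against uncalled libraries also gave p = 1 for both contrasts. With at most 1 library per group above the floor, no relabelling gives a smaller difference. Both tests therefore had to return this p and cannot decide whether the groups differ. Among the 5 called libraries, 3 belonged to the 7 with the pattern of 2 X chromosomes and 2 to the other 23.

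**Figure D2:**
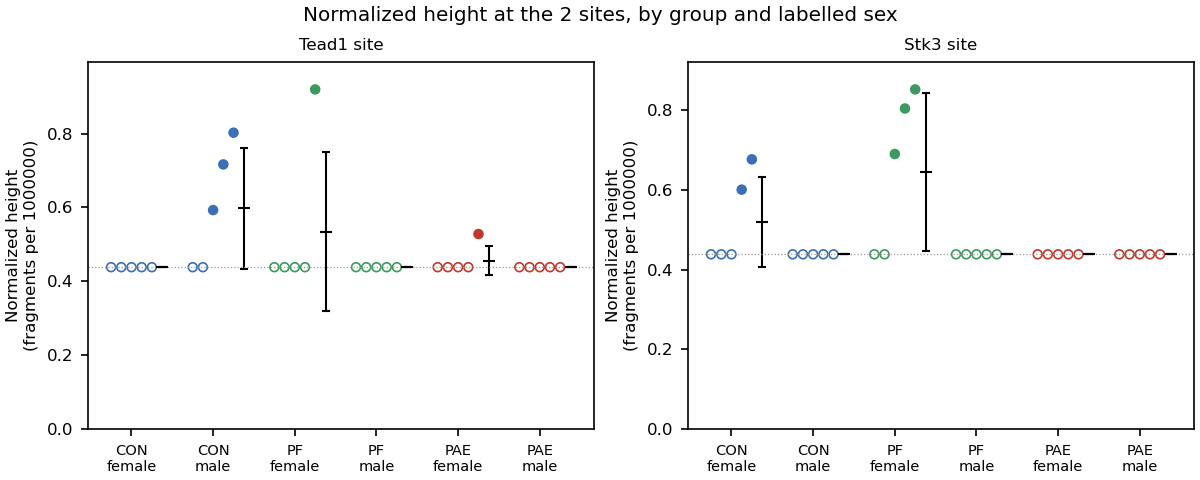
Normalized height (fragments per 1000000) at the Tead1 site and the Stk3 site for each library by prenatal group and labelled sex; filled points are called peaks, open points are libraries set to the floor of 0.438 (dotted line), and bars are mean ± SD of 5 libraries. At each site 5 libraries lie above the floor, and all 5 PAE libraries of the labelled sex in which the site was listed lie on it.

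The regions next to the sites were as sparse as the sites themselves. On the Stk3 side, the nearest member before the site (chr7:73658607-73658948) was called in 4 libraries and the nearest after it (chr7:73665180-73666011) in 5, in every group in both cases. The log2 differences between PAE and CON there were -0.06 ± 0.12 (SE) and 0.01 ± 0.08. Before the Tead1 site, the nearest member (chr1:177551675-177552431, 1.15 kb away) was called in 6 libraries with heights from 0.772 to 1.02, and the difference between PAE and CON was -0.13 ± 0.18. After it, the nearest member (chr1:177555610-177556073) was called in 2 CON libraries only and was not tested. None of the 3 neighbours tested passed limma's test with Benjamini-Hochberg adjustment, the smallest adjusted p being 0.855.

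The comparisons of the prenatal groups over all members asked whether DNAm around the pair of genes moved with PAE or with pair-feeding. No member passed a false discovery rate (FDR) of 0.05 in any of the 3 contrasts in limma with Benjamini-Hochberg adjustment over 352026 autosomal regions, of which 0.000284%, 0% and 0% passed when PAE was set against CON, PAE against PF, and PF against CON. The smallest adjusted p among the members was 0.661, 0.988 and 0.773. At an unadjusted p under 0.05, 6 of the 84 members (7.14%) were past the threshold in PAE versus CON, against 7.37% of all regions. The counts were 5 of 84 (5.95%) against 4.46% in PAE versus PF, and 5 of 84 (5.95%) against 6.46% in PF versus CON. These shares lay near the background. The contrasts share their group means, so they are given side by side only.

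Most members leaned slightly lower in PAE than in CON, as did most of the genome. Of the 84, 55 were lower in PAE than CON, with a median log2 difference of -0.05, beside 63.2% of all regions and a median of -0.05. For PAE versus PF, 45 were lower with a median of -0.01, and for PF versus CON 50 were lower with a median of -0.03. The medians over all regions were -0.02 and -0.03. The size of this lean changed with the scaling. Regions called in all 30 libraries had a median PAE minus CON difference of -0.12 and a PF minus CON difference of -0.07 when scaled to filtered fragments. Under median ratio scaling these were 0.00262 and 0.00264. The latter values are small by construction, since that scaling was set on these same regions. Under that scaling 45 members were lower in PAE than CON with a median of -0.01, and under quantile normalization 40 were lower and the median changed sign to 0.01. Of all regions, 55.5% were still lower in PAE than CON under median ratio scaling and 52.3% under quantile normalization. The 6 members past an unadjusted 0.05 in PAE versus CON were 1 higher and 5 lower, where 1.34% of all regions were higher and 6.03% lower. Under median ratio scaling, 2 members were higher and 2 lower, and the share of all such regions that were higher rose from 18.2% to 33.9%.

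**Figure D3:**
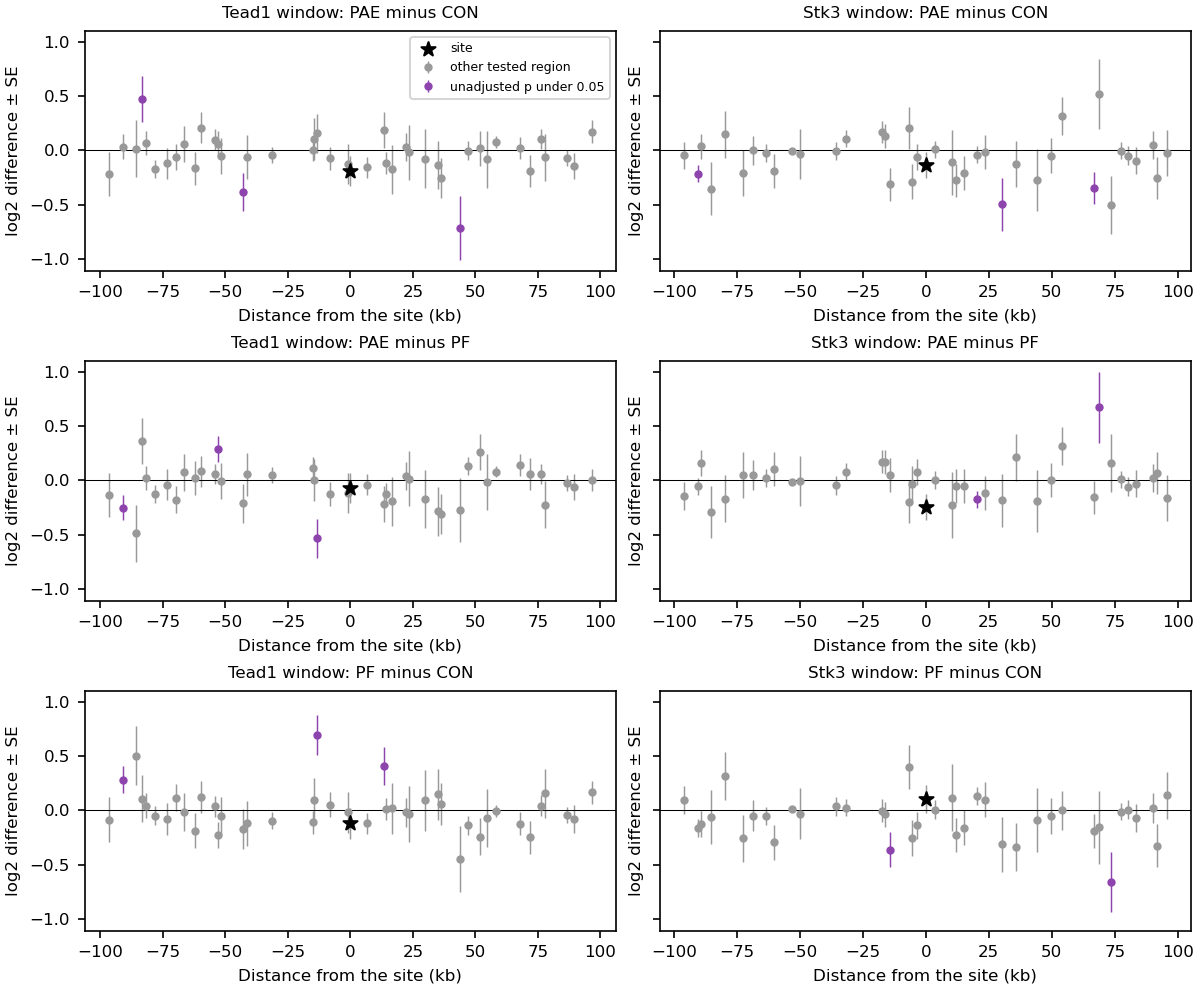
Fitted log2 differences (± SE) of the 84 tested members against distance from the site (kb), for PAE minus CON, PAE minus PF and PF minus CON in each window; purple marks members with an unadjusted p under 0.05 and the star the site. Differences scatter around 0 along both windows, from -0.72 to 0.69 over the 3 contrasts, and no member passed an FDR of 0.05.

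Around Stk3 the tallest member lay 66.7 kb after the site (chr7:73728439-73729208, 770 bp) and was called in every library. CON heights ran from 2.2 through a median of 2.91 to 3.69, PF from 1.87 through 2.56 to 3.2, and PAE from 1.86 through 2.26 to 3.27. The ranges overlapped, but all PAE libraries except 1 lay at or below 2.51. The log2 difference was -0.35 ± 0.15 (SE) between PAE and CON, with an unadjusted p of 0.0275 and an adjusted p of 0.663 in limma, and -0.16 ± 0.15 between PAE and PF. PAE was lower than CON on 3 of the 4 chips that carried both groups and higher on 1, from -0.79 to 0.09. The difference was -0.23 under median ratio scaling, and -0.12 when only peaks covering at least 50% of the region were kept, so that its size depended on these choices.

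The other Stk3 region called in all libraries lay 5.63 kb before the site (chr7:73656133-73656783). CON ran from 1.65 through 1.86 to 3.05, PF from 1.35 through 1.69 to 2.07, and PAE from 1.18 through 1.83 to 3. The medians lay close together and the ranges overlapped. The difference between PAE and CON was -0.29 ± 0.16 and that between PAE and PF -0.03 ± 0.16, with adjusted p-values of 0.699 and 0.997 in limma. Next in mean height was a region 10.5 kb after the site (chr7:73672362-73672902), called in 8 CON, 8 PF and 7 PAE libraries, in which PAE differed from CON by -0.11 ± 0.30. The 2 tallest Stk3 regions thus stood clear of the floor in every animal, unlike the site between them.

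The smallest unadjusted p-values around Stk3 belonged to sparser regions. The region 90.25 kb before the site (chr7:73571675-73572006) was called in 3 CON libraries at 0.642, 0.645 and 0.646, in 1 PF library at 0.524 and in no PAE library. Its PAE minus CON difference was -0.21 ± 0.08, with an unadjusted p of 0.0117 and an adjusted p of 0.661 in limma. Without its CON calls this region would not have entered the fits, so its p-values are a description. The region 20.5 kb after the site (chr7:73682387-73682806) was called in 3 PF libraries only, at 0.787, 0.637 and 0.544. The PAE minus PF difference there was -0.17 ± 0.08, with an unadjusted p of 0.0401 and an adjusted p of 0.988. This region entered the fits only through those 3 PF libraries, so its p-values are a description.

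The region 73.5 kb after the Stk3 site (chr7:73735353-73735889) was called in 7 CON, 3 PF and 5 PAE libraries. CON heights ran from the floor through a median of 0.85 to 1.37, PF reached 1.24 with a median at the floor, and PAE from the floor through 0.506 to 1.02. The PF minus CON difference was -0.66 ± 0.28, with an unadjusted p of 0.0235 and an adjusted p of 0.773 in limma. Within chips it was -1.33 and -1.54 on 2 chips with 1 CON library each and 0.05 and -0.02 on the other 2, so the pooled difference rested on chips where a single CON library was compared.

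**Figure D4:**
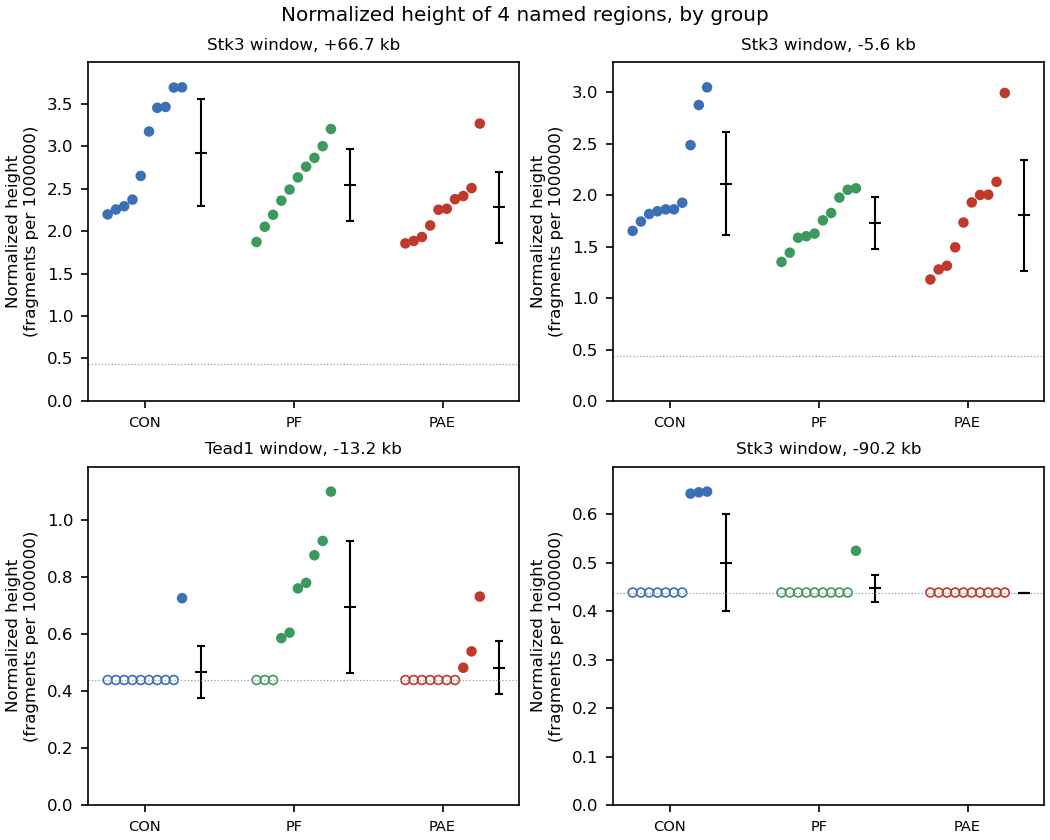
Normalized height (fragments per 1000000) of 4 regions for each library by prenatal group; filled points are called peaks, open points are libraries at the floor of 0.438 (dotted line), and bars are mean ± SD of 10 libraries. The 2 tall Stk3 regions are called in all 30 libraries with overlapping groups, the Tead1 region 13.2 kb before the site is called in 7 PF, 3 PAE and 1 CON libraries, and the Stk3 region 90.25 kb before the site in 3 CON and 1 PF libraries.

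Around Tead1 the member with the smallest p-values did not separate PAE from CON but PF from both. This region lay 13.2 kb before the site (chr1:177539637-177540362, 726 bp). It was called in 7 PF libraries, from 0.585 to 1.1, in 3 PAE libraries at 0.481, 0.538 and 0.73, and in 1 CON library at 0.725. PF was the higher group, though its 3 uncalled libraries shared the floor with most of the others. The PF minus CON difference was 0.69 ± 0.19 (SE), with an unadjusted p of 0.000752 and an adjusted p of 0.773 in limma. The PAE minus PF difference was -0.53 ± 0.18, with an unadjusted p of 0.00565 and an adjusted p of 0.988, and PAE and CON differed by 0.16 ± 0.18.

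The direction at this Tead1 region was the same on each chip, but with few libraries per chip. PF was higher than CON on 4 of 4 chips, by 0.31 to 1.20. These set 4 PF libraries against 1 CON library, 3 against 1, 2 against 3 and 1 against 2. PAE was lower than PF on 3 of 3 chips, with differences of -0.75 to -0.31, the largest against a single PF library. The region was named for its small p in these same values, so the chips are a description. PF minus CON was 0.71 ± 0.32 in libraries labelled female and 0.52 ± 0.27 in those labelled male, and the difference between the labelled sexes was -0.50 ± 0.37 in the fit with an interaction term, with an unadjusted p of 0.184. In the 12 libraries whose sex chromosomes matched the label, PF minus CON was 0.62. The CON libraries there were only C41_M, C43_M and C45_M, and the PF libraries only PF28_F, PF27_M and PF28_M. Of these, C41_M and PF27_M alone shared a chip across the groups. When only peaks covering at least 50% of the region were kept it fell to 0.33. Because the adjusted p was 0.773, the region does not pass the test.

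A second Tead1 region was called in PF alone. It lay 91 kb before the site (chr1:177462054-177462362) and was called in 3 PF libraries labelled male, at 0.952, 0.801 and 0.783, and in no other library. The PF minus CON difference was 0.28 ± 0.12 and the PAE minus PF difference -0.25 ± 0.12, with unadjusted p-values of 0.0262 and 0.0418 and adjusted p-values of 0.773 and 0.988 in limma. The region entered the fits only through these 3 PF libraries, so its p-values are a description. These 3 libraries were also the 3 PF libraries labelled male with the pattern of 2 X chromosomes, and 0 of the 23 libraries without that pattern had a called peak there. All 3 went against their label. Without the libraries that did so both differences were 0, as they had to be, since no other library had a called peak. The part of the sex chromosomes in this result was not tested. This region and the one 13.2 kb before the site were the 2 of 84 members past an unadjusted 0.05 in the same direction against both CON and PAE, a pattern held by 0.917% of all regions. Nothing is read from this count, since the region 91 kb before the site was tested only through its PF calls.

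The tallest Tead1 member by mean height was called in some libraries and not in others. It lay 43.7 kb after the site (chr1:177596684-177597139, 456 bp) and was called in 13 libraries, at 0.74 to 1.99 with a median of 1.22, and in none of the other 17. The calls fell in 6 CON libraries at 1.20 to 1.44, 3 PF libraries at 1.03 to 1.99 and 4 PAE libraries at 0.740 to 1.00. The called heights were thus graded. Calls depend on the peak threshold, so a library without a call need not lack methylation there. The median was 1.21 in CON and at the floor in PF and PAE. The PAE minus CON difference was -0.72 ± 0.29, the lowest of all members, with an unadjusted p of 0.0208 and an adjusted p of 0.661 in limma.

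At this Tead1 region littermates tended to be alike. In 5 litters both pups had a called peak, in 7 litters neither had, and in 3 litters 1 of the pups had. Of the CON litters, C41, C43 and C45 had the peak in both pups, while C44 and C46 had it in neither. Littermates were thus alike in 12 of 15 litters, whereas in the 12 other members called in 10 to 20 libraries they were alike in 7 to 11. Among the 9630 autosomal regions called in 13 libraries, the median was 8 litters and 2.61% had 12 or more. Its values were known when the litters were compared, so no test was made. The fit above treated littermates as separate pups, so the SE and p-values it gave for this region may be too small.

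**Figure D5:**
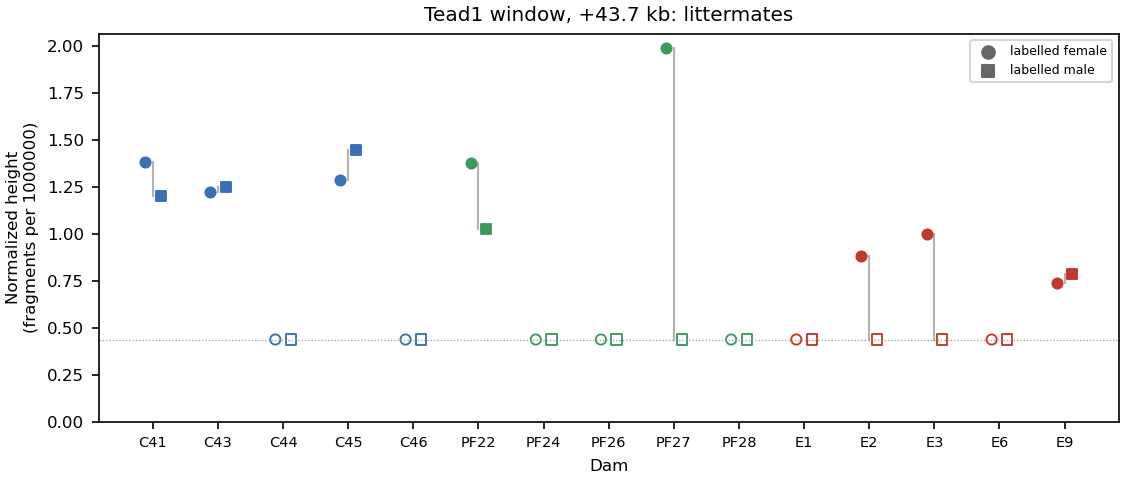
Normalized height (fragments per 1000000) of the Tead1 region 43.7 kb after the site, by dam; circles are pups labelled female, squares pups labelled male, filled symbols called peaks and open symbols libraries at the floor (dotted line). Both pups are called in 5 litters, neither in 7, and 1 in the other 3 (E2, E3 and PF27).

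Next in mean height around Tead1 were a region 96.6 kb before the site (chr1:177456220-177456963), called in 9 CON, 8 PF and 9 PAE libraries, and one 41.3 kb before it (chr1:177511491-177512251), called in 8 libraries of each group. These were the only Tead1 members called in at least 15 libraries. Their PAE minus CON differences were -0.22 ± 0.20 and -0.06 ± 0.20, and their group means lay within 0.684 and 0.735. Neither passed the test in any contrast.

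The study listed its sites separately for each sex, so the members were also fitted within each labelled sex. In libraries labelled female, no member passed an FDR of 0.05 in any contrast, as for 0% of all regions in each of the 3. At an unadjusted p under 0.05, 3, 2 and 4 of 84 members were past the threshold for PAE against CON, PAE against PF and PF against CON, beside 6.87%, 4.17% and 5.9% of all regions. In libraries labelled male no member passed the FDR, beside 0%, 0.000284% and 0.000284% of all regions. There 3, 1 and 4 members were past an unadjusted 0.05, against 4.6%, 3.54% and 3.58%. For the difference between the labelled sexes, no member passed the FDR, as for 0% of all regions, and 4, 1 and 5 members were past an unadjusted 0.05, against 4.87%, 3.19% and 4.77%. With dam as a block, so that the labelled sexes were compared within litters, no member passed the FDR either, and the unadjusted counts were 9, 2 and 6, against 4.7%, 4.48% and 5.23% of all regions.

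These counts changed with single libraries. In libraries labelled female, some members passed the FDR against CON when CON library C43_F or PAE library E6_F was left out. Without E6_F, C43_F was the only CON library that shared a chip with another group. Without C43_F, CON shared a chip with another group only through E6_F. With chip in the fit, the contrasts against CON then rested on a single library and are not read as a group result. In the 10 libraries labelled male whose sex chromosomes matched the label, some members also passed the FDR in PAE versus PF and in PF versus CON. The PF libraries there were only PF27_M and PF28_M, and PF28_M was alone on its chip. With chip in the fit, both contrasts therefore rested on PF27_M alone and are not read as a group result. The same fit without the chip term passed 0 members. The Tead1 and Stk3 sites were not among these members.

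Genes of the Hippo pathway, Stk3 and Tead1 included, were looked up by name among the sites the study listed. Of 54 genes in the list, 8 had a listed site, Stk3 and Tead1 among them, and these genes held 9 sites. The share of all genes with a listed site was not computed, so nothing is read from this count. The study chose these sites on the same libraries, so their levels are a description. Map4k3, a kinase that can act beside MST1 and MST2 on LATS, was called in 29 libraries with means of 1.23 ± 0.37 (SD, n = 10) in CON, 1.22 ± 0.24 in PF and 0.801 ± 0.35 in PAE. Wwtr1, which encodes TAZ, was called in 0 CON, 5 PF and 5 PAE libraries. Of the 2 sites in Wwc2, which encodes an upstream scaffold protein of the KIBRA family, 1 was called in 6 CON libraries and in no other, and 1 in 0 CON, 1 PF and 2 PAE libraries. Sav1, the scaffold that binds MST2, was called in 2 CON libraries only, Tnik in 2 PF and 2 PAE libraries, and Rassf2 in 2 CON, 1 PF and 1 PAE. Except for Map4k3, these sites were called in 10 libraries or fewer, as the Stk3 and Tead1 sites were.

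The autosomal regions whose heights over the 30 libraries were most like each site are given as a description. For the Tead1 site these lay at chr10:68817799-68818353 (Pearson r = 0.93), chr5:131715370-131716127 (r = 0.93) and chr9:41401856-41402204 (r = 0.91). For the Stk3 site they lay at chr2:113043459-113043795 (r = 0.92), chr1:276198702-276199042 (r = 0.87) and chr9:26614224-26614580 (r = 0.86). They were called in 3 to 7 libraries each, and all points share the floor in most of the 30 libraries, which sets much of these values. Among the genes of the RefSeq annotation of a later rat assembly, Stk3 lay between Kcns2 and Osr2, and Tead1 between Parva and an uncharacterized locus.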

How the data were processed

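Members, lists and tests were chosen with earlier results of these data known. For each library the authors used BWA to map reads on Rn6 and SAMtools to discard duplicates, reads with no mate and those with a mapping quality below 10, then ran MACS2 (2.1.4 per the file headers) with no control and a q-value threshold of 0.05. In the deposited files the signal of a peak is its pileup, the fragment coverage at its summit, unscaled. The deposited −log10 q-value served for a stricter threshold of 0.01, and the deposited fold enrichment ratio was read only at the sites. The authors' later counting and testing started from reads and was not used here.

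Peaks of 30 libraries were merged, heights scaled to 1000000 filtered fragments, floored and log2-transformed. limma 3.58.1 (R 4.3.3) fitted group, labelled sex and chip with a trended prior variance to the autosomal regions called in 3 or more libraries, with Benjamini-Hochberg adjustment over all of them. A script tested this on simulated data. Single sites were compared with exact permutation tests (scipy 1.17.1). Named regions were the sites, their nearest members, the 3 tallest members of each window, members called in all libraries, those with the smallest unadjusted p per contrast and window, those past an unadjusted 0.05 against both other groups, and the 3 regions most like each site. Samples of a group were separate pups, 2 per litter. Alternatives were another scaling, floor, peak threshold, region filter, overlap rule, model term and leaving out libraries. No Rn6 sequence or annotation was used here, so no sequence is given and introns are as the study annotated them.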

Additional observations from a re-analysis of the deposited data

Results flagged for a closer look

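Single libraries that stood apart from the other 9 of their group were looked for in the named regions. A gap of this kind arises by chance in about 1 in 20 groups where no values are tied. In 9 of the 14 cases below the other libraries of the group were tied at the floor, so that a single library above it stood apart by construction and that rate does not hold.

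At the Stk3 regions called in all libraries, PAE library E2_F stood above its group, at 2.996 where the next was 2.131 (5.63 kb before the site) and at 3.268 where the next was 2.508 (66.7 kb after it).

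At the 2 sites, the high libraries were PF28_F at 0.920 and E1_F at 0.528, both at the Tead1 site. At the Tead1 region 13.2 kb before the site they were CON library C43_M at 0.725 and PAE library E2_M at 0.730. At the nearest member before the Tead1 site it was E2_F at 1.021, and at the nearest after it CON library C45_M at 1.043 with the next at 0.606. At the Stk3 region 90.25 kb before the site it was PF24_F at 0.524. At the nearest member before the Stk3 site they were C44_M at 0.932, PF24_F at 0.590 and E1_F at 0.679, and at the nearest after it C43_M at 0.593 and E6_M at 0.708.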

How the results depend on the processing

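The count of members past an FDR of 0.05 stayed at 0 in all 3 contrasts over all animals under every alternative run, including a random effect of dam, other scalings and floors, and leaving out each library. The random effect of dam used a single correlation for all regions, -0.024, estimated from 20000 of them. It could therefore not take up the likeness of littermates at a given region. With all libraries or without those against the label, counts past an unadjusted 0.05 ranged from 4 to 8, 3 to 8 and 4 to 7 for PAE against CON, PAE against PF and PF against CON. Leaving out 1 library gave 3 to 8, 2 to 6 and 3 to 7. The lowest were 3 without C46_M in PAE against CON and in PF against CON, and 2 without E1_F or E1_M in PAE against PF, which gave 3 without C44_F, C44_M, PF24_F, PF24_M or E9_M. Within libraries labelled male, some members passed the FDR in PAE versus PF and PF versus CON without the libraries that went against the label. Those contrasts rested on PF27_M alone, since PF28_M was the only library left on its chip. Without the chip term as well, a setting chosen after seeing the data, the count was back at 0. Within libraries labelled female, leaving out 1 library moved the count from 0 only for C43_F and E6_F, in PAE versus CON and PF versus CON. With either left out, these contrasts rested on the single library that still tied CON to the other groups within a chip. At the Tead1 site in libraries labelled female, the PAE minus PF difference ranged from -0.21 to 0.054 when 1 library was left out and changed sign without PF28_F, with an exact permutation p of 1. So few libraries lay above the floor there that this test could not decide. With uncalled libraries at 0 and a pseudocount of 0.1, differences of sparse regions grew, at the Tead1 site to -1.63 between PAE and CON. Interaction fits that leave out libraries were not run. With dam as a block in the interaction fit, chosen after seeing the data, the labelled sexes were compared within litters: 0 members passed the FDR in the difference between the labelled sexes, and 9, 2 and 6 were past an unadjusted 0.05, beside 4.7%, 4.48% and 5.23% of all regions. For the prenatal groups themselves, no paired analysis was possible because littermates share a group and replicate numbers only name samples.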
